A study of Mus musculus with 847 samples.

Results

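The 33 genes described here encode lysosomal hydrolases other than cathepsins, their activator proteins, proteins of the lysosomal membrane and Tfeb, a transcription factor of lysosomal genes. They were chosen by name from textbook lysosomal biology, and all 33 were among the 21076 genes of the deposited count table. Bulk mRNA libraries were made from 15 regions dissected from the brains of 59 C57BL/6JN mice, 25 females and 34 males. No transgene, deletion or treatment is named for any mouse, so the groups differed by age, sex and region. Each sex had 5 mice at 3, 12, 15 and 18 months, and at 21 months there were 5 females and 6 males. The 5 mice of 26 months and the 3 mice of 28 months were all males, so changes past 21 months were measured in males alone. Each region had between 51 and 59 libraries, and libraries held between 481444 and 26756735 reads counted in genes (median 6716032).

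Lysosomes are acidic organelles in which hydrolases break down lipids, glycans, proteins and glycogen that arrive by endocytosis, phagocytosis and autophagy. Most of the enzymes are soluble and specific for 1 kind of bond, and inherited loss of a single enzyme, activator or membrane protein gives a lysosomal storage disease that often damages the brain. Microglia, the phagocytes of the brain, are rich in lysosomes, and Tfeb binds E-box sequences in the promoters of many lysosomal genes.

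The promoters of 4 members are shown because they run from several copies of the E-box to none. Each line gives the 250 bases before the start of transcription from RefSeq (GRCm38.p6), 5′ to 3′ on the strand of the gene, with each CACGTG, or TCACGTGA where the longer form was present, in capitals.
Lamp1: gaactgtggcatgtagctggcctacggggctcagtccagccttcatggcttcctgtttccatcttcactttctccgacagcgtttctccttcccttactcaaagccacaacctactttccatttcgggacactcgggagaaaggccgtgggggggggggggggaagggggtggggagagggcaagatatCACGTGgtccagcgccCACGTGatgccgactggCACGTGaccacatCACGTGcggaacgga
Naglu: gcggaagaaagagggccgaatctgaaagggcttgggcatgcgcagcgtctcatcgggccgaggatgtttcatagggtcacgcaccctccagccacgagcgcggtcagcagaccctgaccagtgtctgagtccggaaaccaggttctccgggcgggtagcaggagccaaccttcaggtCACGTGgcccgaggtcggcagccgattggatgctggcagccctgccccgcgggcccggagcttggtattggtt
Gla: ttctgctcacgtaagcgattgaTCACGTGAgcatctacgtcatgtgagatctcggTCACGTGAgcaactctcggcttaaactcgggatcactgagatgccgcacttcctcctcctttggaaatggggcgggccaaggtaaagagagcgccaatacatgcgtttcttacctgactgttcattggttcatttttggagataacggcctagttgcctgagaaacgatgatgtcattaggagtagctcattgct
Laptm5: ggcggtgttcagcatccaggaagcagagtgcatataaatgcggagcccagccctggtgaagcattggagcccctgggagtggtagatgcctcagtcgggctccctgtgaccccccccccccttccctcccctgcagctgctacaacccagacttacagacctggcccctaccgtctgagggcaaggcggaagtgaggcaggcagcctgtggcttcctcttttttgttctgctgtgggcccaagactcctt
These windows lie at chr8:13158911-13159160 (plus strand) for Lamp1, chr11:101069844-101070093 (plus) for Naglu, chrX:134601006-134601255 (minus) for Gla and chr4:130913066-130913315 (plus) for Laptm5. Lamp1 had 4 copies of CACGTG within 61 bases of its start, Naglu had 1, Gla had 2 copies of the longer form, and Laptm5 had none. Windows from 250 bases before to 50 bases after the start were matched by symbol for 31 members, all except Asah1 and Npc1. Of the 31, 9 (29.0%) held CACGTG, against 9.40% of 15922 genes of the table with such a window. The longer TCACGTGA, which contains CACGTG, was present in 3 members (Cln3, Gla and Mcoln1; 9.68%), against 1.51% of the genes. Both motifs are palindromes, so 1 search covered both strands. A match is a description of the letters in the window and not a measured binding site. Of the 9 members with a match, Naglu rose with age in 11 regions, Lamp1 in 7, Sgsh in 5, Cln3 in 4, Gaa in 3, Glb1 in 2, and Arsa, Gla and Mcoln1 in none. Laptm5, without a match, rose in 12.

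Age was tested in each region by the slope in log2 expression per month, fitted beside sex with edgeR's quasi-likelihood test, and p-values were adjusted by Benjamini-Hochberg over all genes of the region. Across the 495 pairs of a member and a region, 127 rose with age (25.7%) and 3 fell (0.606%) at an adjusted p under 0.05. Over all genes and regions, 6.37% of pairs rose and 5.1% fell. The rises numbered 79 with mice 16 to 56 alone, a set without the 12-, 26- and 28-month groups (all pairs 4.23%), and 78 with males alone (all pairs 3.98%). With the level of microglial markers as a covariate 79 pairs rose and 12 fell, where 5.87% and 5.28% of all pairs did. The slope was above 0 in 409 member pairs (82.6%), with a median of 0.0048 log2 per month, while the median over all genes lay within 0.0006 of 0 in each region. The changes were small for most members: the slopes of the 127 rises ran from 0.0043 to 0.054 log2 per month, and their median of 0.012 amounts to 1.23-fold over the 25 months between the youngest and the oldest mice. In these bulk libraries a change in the number of cells of a type and a change of RNA per cell cannot be told apart.

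**Figure D1:**
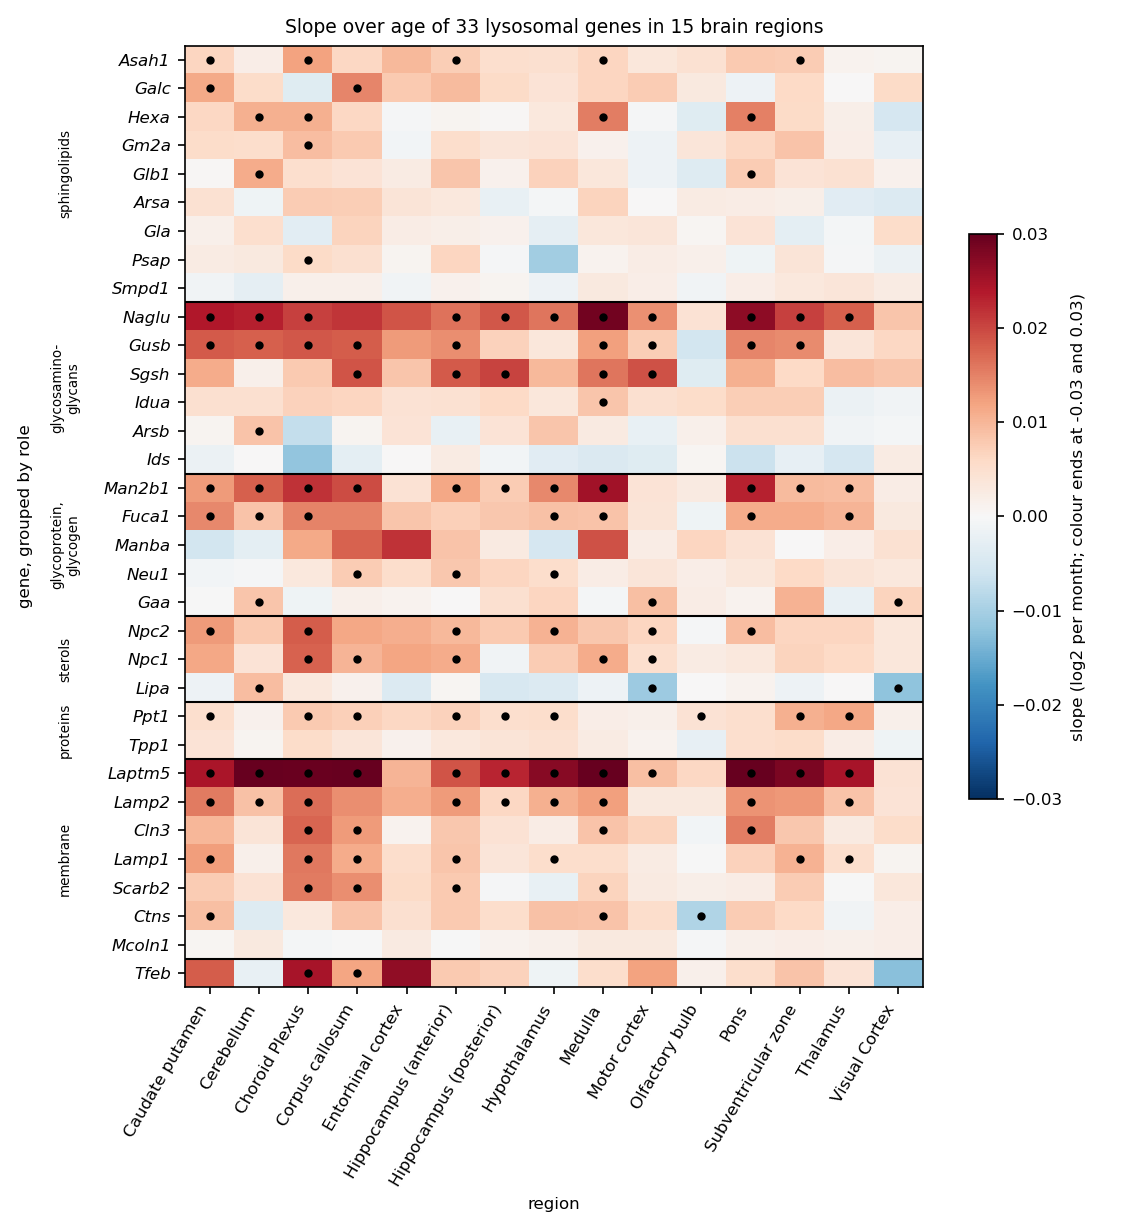
Slope of expression over age (colour, log2 per month) for the 33 members (rows, grouped by role) in the 15 regions (columns), with a dot where the adjusted p was under 0.05. Laptm5, Naglu and Man2b1 have dots in 12, 11 and 11 regions, the entorhinal cortex column has none, and the 3 dots on blue are Lipa in motor and visual cortex and Ctns in olfactory bulb.

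The share of members that rose varied by region. In choroid plexus 17 of 33 rose (51.5%), where 11.5% of all genes did, and in medulla 14 rose (42.4%, all genes 6.56%). Anterior hippocampus had 13 (39.4%, all genes 6.89%), caudate putamen 12 (36.4%, all genes 7.68%), corpus callosum 12 (36.4%, all genes 9.64%) and cerebellum 11 (33.3%, all genes 10.5%). Rises numbered 10 in pons (30.3%, all genes 4.62%), 9 in hypothalamus (27.3%, all genes 4.13%) and 7 each (21.2%) in thalamus, subventricular zone and motor cortex, where all genes gave 2.78%, 4.85% and 8.39%. Posterior hippocampus had 6 (18.2%, all genes 4.53%). The remaining regions had at most 1 rise, a count too small to place below the share of all genes. Visual cortex and olfactory bulb had 1 rise each (3.03%, all genes 5.8% and 7.78%), and entorhinal cortex had 0 (all genes 0.186%) by edgeR. In entorhinal cortex 29 of 33 slopes were above 0 (all genes 53.7%) and 9 members had an unadjusted p under 0.05 (27.3%, all genes 9.80%). Some region counts moved with the mice used. Males alone gave 5 rises in choroid plexus (all genes 3.61%), 2 in thalamus (1.07%), 3 in hypothalamus (1.39%) and 2 in motor cortex (5.28%). Mice 16 to 56 alone gave 1 each in caudate putamen (all genes 3.64%) and subventricular zone (1.86%), 2 in posterior hippocampus (2.48%) and 4 in hypothalamus (2.20%). With the same mice choroid plexus had 18 (10.1%) and medulla 10 (4.45%).

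**Figure D2:**
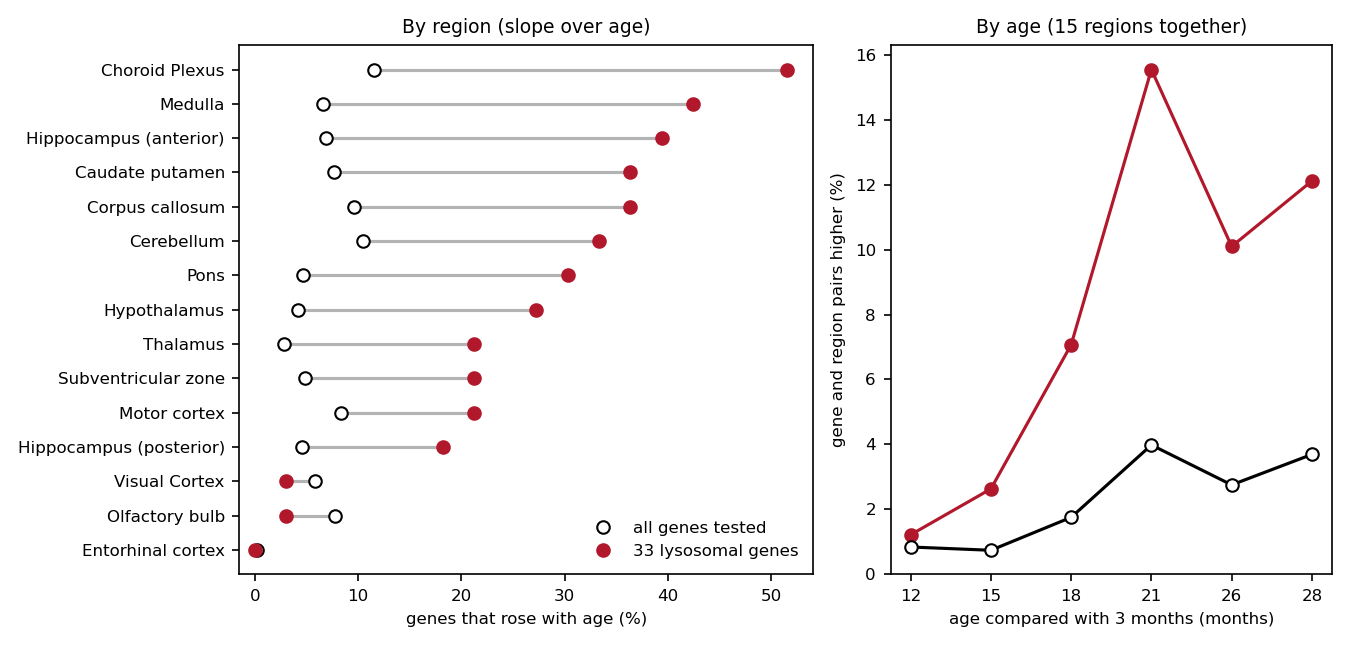
Left, percent of genes that rose with age in each region, for the 33 members (filled) and all genes tested (open); right, percent of gene and region pairs higher than at 3 months at each later age. The members lie to the right of all genes in 12 regions, from 51.5% in choroid plexus down to 18.2% in posterior hippocampus. Their share over age is highest at 21 months (15.6%), as is that of all pairs (3.98%). There were 11 mice of 21 months but 5 of 26 and 3 of 28 months, so these shares cannot be compared directly between ages.

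Of the membrane proteins, 38 of 105 pairs rose (36.2%) and 1 fell, where 6.37% and 5.1% of all pairs did. Laptm5, a lysosomal membrane protein made by cells of the blood lineage, microglia among them (chr4:130913125-130936141, GRCm38), rose in 12 regions. In cerebellum its level at 3 months ran from 11.4 to 24.4 counts per 1e+06 reads (CPM, adjusted for library composition) with a median of 19.3. The median was 24.6 at 12 months (20.0 to 32.8), 32.4 at 15 months (24.2 to 36.6), 34.9 at 18 months (26.9 to 55.3) and 34.6 at 21 months (26.4 to 75.6). The 5 mice of 26 months had 28.5, 36.4, 43.0, 48.6 and 53.1, and the 3 of 28 months had 34.2, 43.0 and 49.1. From 15 months on, every mouse except 1 of 15 months was above the highest 3-month mouse. The slope was 0.054 ± 0.0051 log2 per month (SE, n = 58, edgeR adjusted p = 9e-13), or 2.55-fold over 25 months. Visual cortex had the slope of Laptm5 nearest to 0 (0.0043 ± 0.0032, edgeR adjusted p = 0.42), where the medians were 45.2 CPM at 3 months, 46.9 at 21 months and 48.7 at 28 months and the ages overlapped.

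Lamp1 and Lamp2 are the abundant glycoproteins that line the lysosomal membrane, and Lamp2 also serves as receptor in chaperone-mediated autophagy. Lamp2 (chrX:38401357-38456454) rose in 9 regions and its slope was above 0 in all 15. In choroid plexus Lamp2 ran from 141 to 243 CPM at 3 months (median 193), from 200 to 277 at 21 months (median 240) and was 155, 173, 213, 229 and 244 at 26 months and 209, 231 and 268 at 28 months, so the ages overlapped. Its slope there was 0.0167 ± 0.0041 (n = 57, edgeR adjusted p = 0.0029), and with males alone the slope of 0.0163 missed the threshold, as did that of 0.0114 with the microglial covariate (edgeR adjusted p = 0.29). Lamp1 (chr8:13159161-13175338) rose in 7 regions. In choroid plexus Lamp1 had medians of 535 CPM at 3 months (453 to 813) and 686 at 21 months (619 to 853), the 26-month mice had 528, 539, 570, 782 and 842, and the 28-month mice had 617, 700 and 736. The slope of Lamp1 was 0.0158 ± 0.0040 there (n = 57, edgeR adjusted p = 0.0035; 0.0125 and past no threshold with males alone). With the microglial covariate it was 0.0041 (edgeR adjusted p = 0.75). In olfactory bulb the slope was -0.0002 and all ages lay between 414 and 509 CPM.

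Scarb2, the receptor that brings glucocerebrosidase to lysosomes, rose in 4 regions. In choroid plexus its median went from 51.4 CPM at 3 months (47.1 to 68.1) to 68.6 at 21 months (48.3 to 86.4), with overlap. The 26-month mice had 53.7, 54.0, 55.0, 65.3 and 73.4, and the 28-month mice were at 66.8, 68.3 and 68.9 (slope 0.0155 ± 0.0035, edgeR adjusted p = 0.0011). With males alone that slope was 0.0120 and missed the threshold, and with the microglial covariate it was 0.0049 (edgeR adjusted p = 0.64). Cln3, a membrane protein lost in juvenile Batten disease, rose in choroid plexus, corpus callosum, medulla and pons, with slopes between 0.0086 and 0.0174. Ctns, the cystine exporter, moved in both directions. It fell in olfactory bulb (slope -0.0090 ± 0.0030, edgeR adjusted p = 0.032), from a median of 23.0 CPM at 3 months (15.0 to 27.9) to 19.6 at 21 months (17.0 to 22.1) and 20.2, 20.4 and 22.4 at 28 months. It rose in caudate putamen (0.0090) and medulla (0.0086), where the medians at 3 and 28 months were 13.9 and 16.6 CPM and 13.1 and 15.5 CPM. The fall in olfactory bulb missed the threshold with males alone (-0.0072) and without mouse 40 (-0.0083), as did the rise in medulla with males alone (0.0052) and that in caudate putamen without mouse 37 (0.0079). Mcoln1, a lysosomal cation channel, passed in no region.

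**Figure D3:**
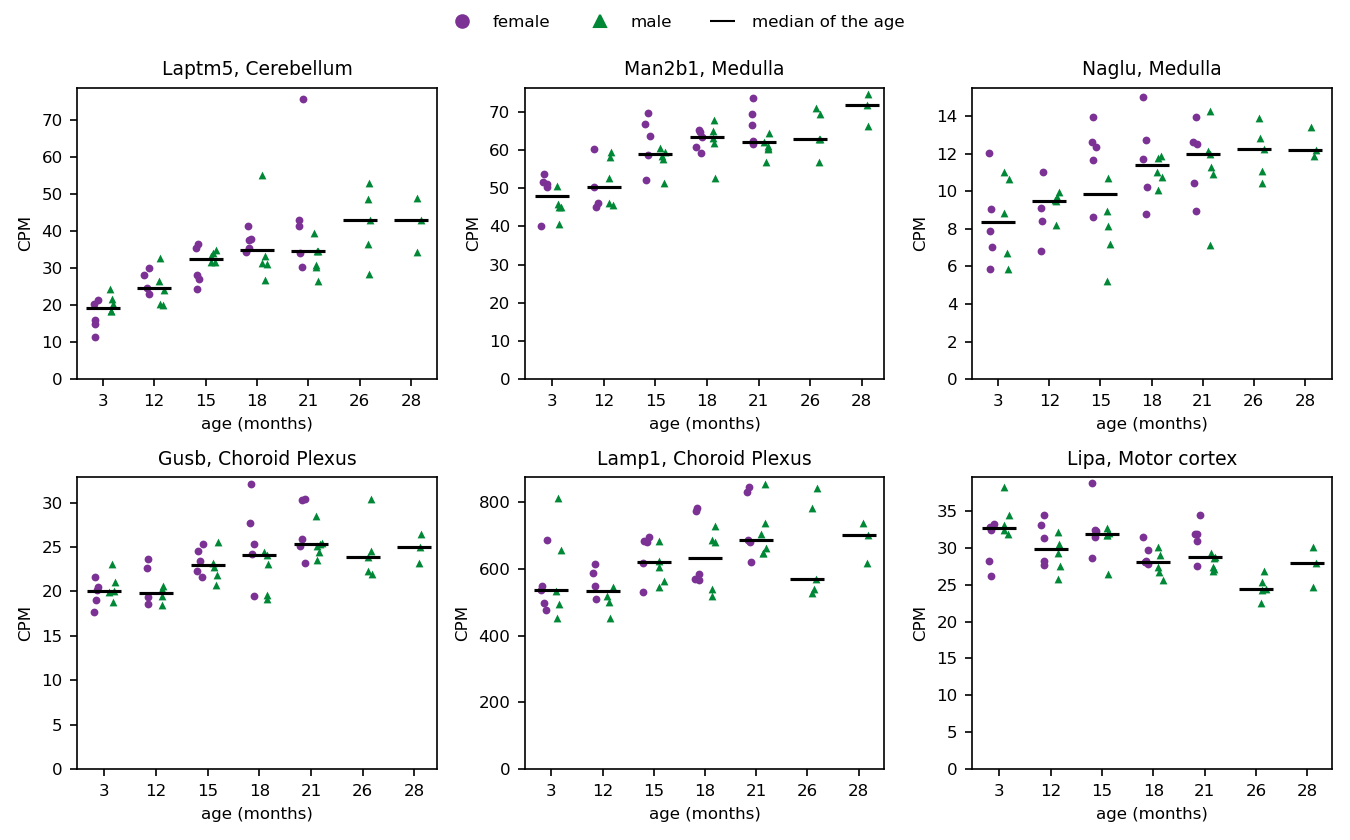
Level in CPM against age in months for 6 pairs of a member and a region, 1 point per library, coloured by sex, with the median of each age. Man2b1 in medulla and Gusb in choroid plexus at 21 and 28 months lie wholly above 3 months, with 2 of 5 mice of 26 months within the 3-month range for Gusb, Lamp1 in choroid plexus overlaps it, and Lipa in motor cortex falls from a median of 32.6 to 27.9.

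Of the enzymes that take down glycosaminoglycans, 27 of 90 pairs rose (30.0%) and none fell (all pairs 6.37% and 5.1%). Most of these rises came from 2 members. Naglu, the N-acetyl-glucosaminidase of heparan sulfate (chr11:101070012-101077672), rose in 11 regions, with a slope above 0 in all 15. In medulla it ran from 5.84 to 12.0 CPM at 3 months (median 8.36) and from 7.13 to 14.3 at 21 months (median 12.0). The 26-month mice had 10.5, 11.1, 12.3, 12.9 and 13.9 and the 28-month mice 11.9, 12.2 and 13.4, and both ages overlapped the upper end of the 3-month range. The slope was 0.029 ± 0.0047 (n = 58, edgeR adjusted p = 5.4e-06), or 1.65-fold over 25 months, against 0.0043 in olfactory bulb. With the microglial covariate the slope in medulla was 0.0140 and did not pass (edgeR adjusted p = 0.095). Gusb, the beta-glucuronidase (chr5:129989011-130003049), rose in 9 regions. In choroid plexus its 3-month mice lay between 17.7 and 23.1 CPM (median 20.1), its 21-month mice between 23.2 and 30.4 (median 25.4) and its 28-month mice at 23.3, 25.0 and 26.5, so neither of these overlapped the first. The 26-month mice had 21.9, 22.3, 23.8, 24.6 and 30.4, and 2 of the 5 lay within the 3-month range. The slope of Gusb was 0.0185 ± 0.0029 (n = 57, edgeR adjusted p = 2.2e-06), and in hypothalamus, at a median of 28.9 CPM at 3 months and 31.2 at 21 months, it was 0.0033.

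Sgsh, the heparan sulfamidase, rose in 5 regions with slopes between 0.0160 and 0.0203, at mean levels of 4.50 to 11.7 CPM. The exons of Sgsh overlap those of Card14 on the opposite strand over 21.6% of their length, and in unstranded libraries the reads of the overlap cannot be told apart. Idua, the iduronidase, rose in medulla alone (0.0083 ± 0.0022, edgeR adjusted p = 0.0062). Arsb, which removes sulfate from dermatan sulfate, rose in cerebellum alone (0.0085 ± 0.0018, edgeR adjusted p = 0.0003), and 39.9% of its exon length is shared with other genes. Ids, the iduronate sulfatase, passed in no region, and its slope in choroid plexus was -0.0117.

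Of the enzymes of glycoprotein and glycogen breakdown, 24 of 75 pairs rose (32.0%) and none fell (all pairs 6.37% and 5.1%). Man2b1, the alpha-mannosidase (chr8:85083270-85098282), rose in 11 regions, and its slope was above 0 in all 15. In medulla its 3-month mice ran from 40.2 to 53.7 CPM with a median of 48.0, and the medians were 50.3 at 12 months (45.1 to 60.1), 59.1 at 15 months (51.4 to 69.7), 63.3 at 18 months (52.6 to 67.8) and 62.2 at 21 months (56.8 to 73.5). The 26-month mice had 56.9, 62.8, 62.9, 69.5 and 71.1 and the 28-month mice 66.3, 71.8 and 74.7. No mouse of 21 months or older fell within the 3-month range. The slope was 0.0252 ± 0.0026 (n = 58, edgeR adjusted p = 1e-11), or 1.55-fold over 25 months, against 0.0023 in visual cortex. There the medians were 45.0 CPM at 3 months (39.2 to 50.4) and 47.6 at 21 months. The 26-month mice of visual cortex, at 41.9 to 48.5, lay within the 3-month range. Those of 28 months, at 50.9, 53.5 and 53.9, lay above it.

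Fuca1, the alpha-fucosidase, rose in 7 regions. In choroid plexus it went from a median of 69.4 CPM at 3 months (52.9 to 80.1) to 82.8 at 21 months (74.4 to 94.7), with 78.2, 83.0 and 88.6 at 28 months a median of 81.4 at 26 months and overlap between ages (slope 0.0149 ± 0.0033, edgeR adjusted p = 0.00094). Neu1, the sialidase, rose in corpus callosum, anterior hippocampus and hypothalamus with slopes between 0.0052 and 0.0082. Gaa, the acid alpha-glucosidase that digests glycogen, rose in cerebellum, motor cortex and visual cortex, and the rise in visual cortex (0.0068 ± 0.0022, edgeR adjusted p = 0.037) was the single rise of a member in that region. With mice 16 to 56 alone no member rose there (all genes 2.84%). Manba, the beta-mannosidase, passed in no region.

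Of the genes for sterols and neutral lipids, 12 of 45 pairs rose (26.7%) and 2 fell (all pairs 6.37% and 5.1%). Npc1 and Npc2 hand cholesterol out of the lysosome, and they rose in 5 and 6 regions. In choroid plexus, their region of largest slope, the slopes were 0.0178 ± 0.0046 for Npc1 (edgeR adjusted p = 0.0043) and 0.0181 ± 0.0041 for Npc2 (edgeR adjusted p = 0.0013). Lipa, the acid lipase that frees cholesterol from its esters, fell in both neocortical samples. In visual cortex Lipa had a median of 28.3 CPM at 3 months (22.7 to 31.9), 24.1 at 21 months (19.4 to 30.2) and 21.7, 23.8 and 27.2 at 28 months (slope -0.0120 ± 0.0028, edgeR adjusted p = 0.0023). In motor cortex it went from 32.6 at 3 months (26.2 to 38.2) to 28.7 at 21 months (26.8 to 34.4) and to 22.6, 24.2, 24.5, 25.4 and 26.8 at 26 months and 24.7, 27.9 and 30.2 at 28 months (slope -0.0109 ± 0.0023, edgeR adjusted p = 0.00038). The ages overlapped in both. In cerebellum Lipa passed in the other direction by a narrow margin (0.0092 ± 0.0034, edgeR adjusted p = 0.0496), and this call was lost without any of mice 16, 18, 40 and 57 (slopes 0.0086 to 0.0093) and with DESeq2 (0.0094). With the microglial covariate the slope was -0.0098 and did not pass (edgeR adjusted p = 0.147).

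Of the genes of sphingolipid and ganglioside breakdown, 15 of 135 pairs rose (11.1%) and none fell (all pairs 6.37% and 5.1%). This share of rises was nearer to that of all pairs than in the roles above. Asah1, the acid ceramidase, gave 5 of the 15 rises, with slopes between 0.0063 in medulla and 0.0120 in choroid plexus. Hexa, the alpha subunit of beta-hexosaminidase A, rose in cerebellum, choroid plexus, medulla and pons (0.0106 to 0.0153). Galc, which digests the galactolipid of myelin, rose in caudate putamen and corpus callosum. In corpus callosum Galc had a median of 14.1 CPM at 3 months (13.1 to 18.2), 17.4 at 21 months (12.7 to 19.6) and 17.4, 19.4 and 20.2 at 28 months, with overlap between ages (0.0147 ± 0.0038, edgeR adjusted p = 0.0033). With mice 16 to 56 alone, that slope of 0.0136 missed the threshold. Glb1, the beta-galactosidase, rose in cerebellum and pons, and the activators Gm2a and Psap rose in choroid plexus alone (0.0093 and 0.0056). Arsa, Gla and Smpd1, which act on sulfatide, globosides and sphingomyelin, passed in no region. Arsa in motor cortex had a slope of 0.0001, with medians of 27.5 CPM at 3 months and 27.0 at 21 months.

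Of the 2 enzymes that act on proteins, Ppt1, which removes palmitate from proteins, rose in 9 regions and Tpp1, a tripeptidyl peptidase, in none. Both are genes of neuronal ceroid lipofuscinosis. In thalamus Ppt1 went from a median of 144 CPM at 3 months (121 to 170) to 164 at 21 months (141 to 182), and the 26-month mice had 168, 174, 175, 178 and 181. The highest 3-month mice overlapped the later ages (slope 0.0116 ± 0.0015, n = 59, edgeR adjusted p = 1.1e-07). In cerebellum the slope of Ppt1 was 0.0012. Tfeb itself rose in choroid plexus (0.0248 ± 0.0072, edgeR adjusted p = 0.011) and corpus callosum (0.0119 ± 0.0044, edgeR adjusted p = 0.048).

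With age as a factor, each later age was compared with the same 3-month libraries, so the steps are not independent of each other. At 12 months 6 pairs were higher and 3 lower (all pairs of genes and regions 0.835% and 0.927%), and 4 of the 6 were in thalamus. At 15 months 13 were higher and 1 lower (all pairs 0.734% and 0.551%), and at 18 months 35 and 1 (1.75% and 1.11%). At 21 months 77 were higher (15.6%) and 3 lower, against 3.98% and 3.01% of all pairs. The counts were 50 and 2 at 26 months (2.75% and 1.57%) and 60 and 1 at 28 months (3.69% and 2.65%). The median difference of the members from 3 months grew from 0.02 log2 at 12 months to 0.13 at 28 months.

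Laptm5 was higher in 2 regions at 12 months, 6 at 15, 11 at 18 and 12 at 21 months. Man2b1 was higher in 0, 4, 7 and 8 regions at those ages. Naglu was higher in 0 regions at 12 and 15 months, 2 at 18, 5 at 21 and 7 at 28 months. Choroid plexus did not follow an even course: 18 members were higher at 21 months, but 3 at 26 and 4 at 28 months, ages with at most 5 and 3 mice. In males alone, where at most 6 mice stood at an age, the counts of higher pairs were 0, 1, 10, 23, 31 and 41 from 12 to 28 months. The shares of all genes in that fit are not reported here, so these counts are not set against them.

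The slopes were then compared between regions in a single fit of all libraries. They differed for 14 of 33 members (42.4%), where 22.8% of all genes did. With males alone they differed for 5 members, where 9.55% of all genes did. The smallest edgeR adjusted p-values were those of Laptm5 (3.66e-30), Man2b1 (1.32e-14) and Hexa (3.06e-09), followed by Gusb (5.1e-05), Ppt1 (0.00012), Ctns (0.00122), Lamp1 (0.00203), Tfeb (0.00336), Scarb2 (0.0043) and Arsb (0.00546). Cln3 (0.0255), Psap (0.0368), Npc1 (0.0413) and Manba (0.0466) passed more narrowly. Psap in hypothalamus, the region of its lowest slope (-0.0105), split by mouse number, as described below. In medulla the 28-month males, numbered 57 to 59, had Manba levels above every other male. For the 28-month mice number and age cannot be told apart. What number contributed to the calls of Psap and Manba was not tested. With the mouse as a block, which uses that each animal gave several regions, Npc1 (edgeR adjusted p = 0.052) and Manba (0.0529) no longer passed. Naglu, Lamp2, Fuca1 and Npc2, which rose in 6 to 11 regions each, did not pass this test.

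The title of the study concerns white matter, and the 15 regions include a white matter tract, the corpus callosum. The slope there was compared with the mean slope of the other 14 regions. No member differed at an edgeR adjusted p under 0.05, where 0.902% of all genes had a higher and 0.539% a lower slope there. The difference was above 0 for 30 of 33 members (all genes 51.7%), and 10 had an unadjusted p under 0.05, all with the higher slope in corpus callosum (30.3%, all genes 6.07% with the higher slope). The 5 members with the smallest adjusted p were Scarb2 (0.010 ± 0.0030 log2 per month steeper, edgeR adjusted p = 0.0579), Man2b1 (0.0083, 0.0803), Galc (0.0104, 0.135), Gusb (0.0086, 0.301) and Arsa (0.0064, 0.391). The count at an unadjusted p under 0.05 was 9 with the mouse as a block, 6 with mice 16 to 56 alone, 5 with males alone, 5 without mouse 37, 5 without mouse 57 and 4 without a filter on low counts.

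Microglial markers also rose with age in most regions. Of 8 markers of homeostatic microglia (P2ry12, Tmem119 and others), 67 of 120 pairs rose and 3 fell. Of 8 markers of activated microglia 75 of 114 pairs rose and none fell. Over all genes and regions 6.37% of pairs rose and 5.1% fell. The summed level of the homeostatic markers was 104 to 143 CPM at 3 months in cerebellum (median 114) and 132 to 205 at 21 months (median 157). In medulla it was 187 to 292 at 3 months (median 226) and 298 to 446 at 21 months (median 336). No homeostatic marker rose in entorhinal, motor or visual cortex. The covariate was the mean log2 CPM of the 8 homeostatic markers in each library, not their summed level. With it, 79 pairs of a member and a region rose and 12 fell (all pairs 5.87% and 5.28%), and 51 of the 127 rises remained. Laptm5 rose in 12 regions in that fit, Gusb in 7, Man2b1 in 6 and Ppt1 in 5. Naglu rose in 4 (11 without the covariate), Lamp2 in 4 (9), Fuca1 in 1 (7), and Lamp1 rose in 2 and fell in 2, cerebellum and medulla. Corpus callosum had 21 rises (all genes 14.0%), choroid plexus 3 (1.86%), cerebellum 2 (4.46%) and medulla 4 rises and 5 falls (13.1% of all genes rose there). The part of microglial number in the rises was not tested beyond this covariate, which itself changed with age.

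Some markers of other cell types also moved, and their counts stand beside 6.37% of all pairs that rose and 5.1% that fell. Of 4 markers of oligodendrocyte precursors, 1 of 60 pairs rose and 16 fell, with a fall in each of the 15 regions. No region had more than 2 of the 4 falling, and the median slope of the 4 was above 0 in 8 regions. Of 6 neuronal markers 2 of 90 pairs rose and 16 fell, in 10 regions, and of 6 astrocyte markers 10 of 90 rose and 8 fell. The choroid plexus libraries held neural tissue as well as epithelium: at 3 months the summed epithelial markers (Ttr, Folr1 and others) ran from 1908 to 6750 CPM and the neuronal markers from 4611 to 6398 CPM. In the same libraries the summed markers of mature oligodendrocytes ran from 4993 to 24803 CPM at 3 months (median 9570) and from 12275 to 25701 at 21 months (median 17222), and 3 of 6 rose with age. Their part in the 17 rises of choroid plexus was not tested. In corpus callosum the oligodendrocyte markers had medians of 21214 CPM at 3 months and 21607 at 21 months, and epithelial markers reached 15721 CPM in a 3-month library. There 2 of 6 oligodendrocyte and 4 of 6 astrocyte markers rose, and their part in the 12 rises of corpus callosum was not tested. In anterior hippocampus 5 of 5 epithelial markers tested rose, from a highest sum of 31.3 CPM at 3 months to 2352 at 21 months, with medians of 17.4 and 23.4, and their part in the 13 rises there was not tested. Blood markers rose in 12 of 60 pairs.

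Related lysosomal genes outside the 33 were taken from lists chosen by function. Of 30 further hydrolases, activators and membrane proteins, 90 of 450 pairs rose (20.0%) and 9 fell (2.00%), where 6.37% and 5.1% of all pairs did. Examples are Gpnmb, a glycoprotein of loaded phagocytes, which rose in 13 regions (medulla 0.18 ± 0.011 log2 per month, edgeR adjusted p = 1.24e-19), Grn, the precursor of granulins, in 10 (medulla 0.0270) and Cd63 in 7 (pons 0.0230). The 18 subunits of the proton pump (V-ATPase) gave 7 rises (2.59%) and 11 falls (4.07%) in 270 pairs, both below the shares of all pairs. Of 6 genes of mannose 6-phosphate sorting 16 of 90 pairs rose (17.8%) and none fell, and of 13 regulators of lysosomal genes and activity 8 of 195 rose (4.10%) and 3 fell (1.54%).

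Levels of the members differed more between genes than between regions. Per kilobase of exon, Psap was the highest (365 CPM per kb), then Lamp1 (226), Gaa (98.5), Ppt1 (44.1) and Smpd1 (40.0), and Galc was the lowest (0.964). The ratio of the highest to the lowest region mean had a median of 2.03 over the 33 members, and 17 were above 2. Of 462 neighbours in the 33 orders of regions, 433 differed by less than the larger of their SDs. The highest level was in medulla for 10 members, in pons for 7 and in hypothalamus for 3, and the lowest was in visual cortex for 6.

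Gaa had the widest range: 1249 ± 166 CPM in hypothalamus (SD, n = 55), then 765 ± 132 in subventricular zone and 592 ± 112 in pons, down to 218 ± 19.2 in cerebellum (n = 58), a ratio of 5.74. The steps from hypothalamus to subventricular zone and from there to pons exceeded the larger SD. Tfeb had 19.6 ± 2.82 CPM in pons and 19.3 ± 2.88 in medulla, then 16.8 in cerebellum and 14.9 in corpus callosum, down to 5.00 ± 3.17 in entorhinal cortex, with each neighbour within the spread of the next. Npc2 was at 139 ± 17.4 CPM in medulla and 137 ± 14.3 in pons, apart from corpus callosum (106 ± 25.6), and lowest in visual cortex (48.9 ± 4.52). Lamp1 had the same pair at the top, 1005 ± 109 CPM in medulla and 990 ± 82.1 in pons, then 676 ± 61.9 in corpus callosum, and 423 ± 23.9 in visual cortex. Manba was highest in thalamus (18.2 ± 3.24) and lowest in caudate putamen (5.29 ± 1.95), and Sgsh highest in hypothalamus (14.4 ± 2.73) and lowest in motor cortex (4.50 ± 1.06). Laptm5 was highest in caudate putamen (79.3 ± 14.4) and stood apart in cerebellum at 32.0 ± 10.9. The steadiest were Tpp1 (ratio 1.32), Ppt1 (1.35) and Man2b1 (1.44).

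**Figure D4:**
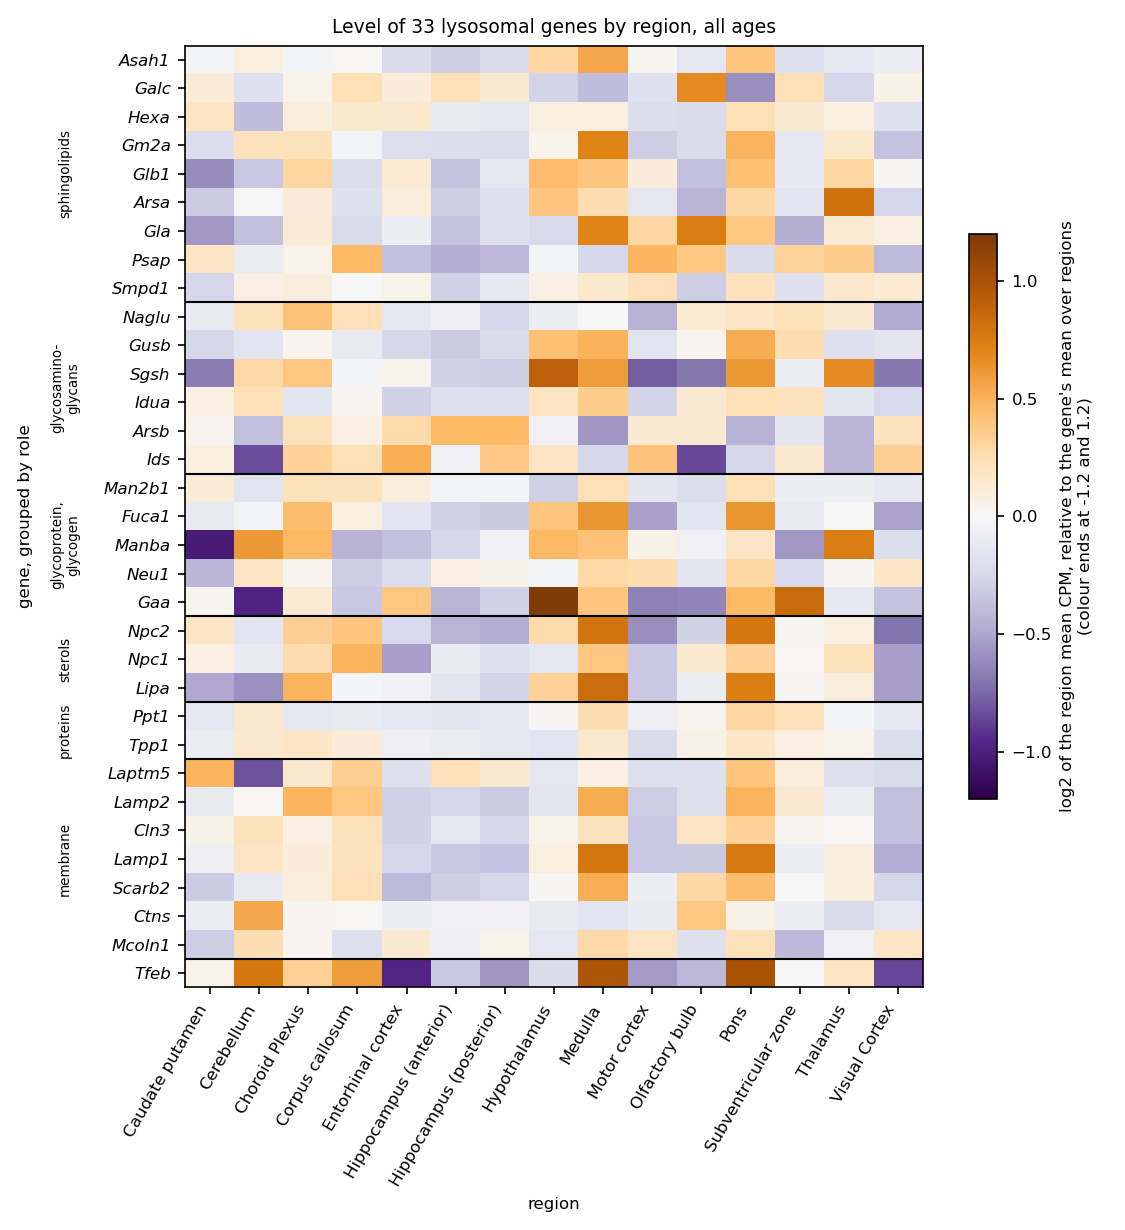
Mean level of each member (rows) in each region (columns) over all ages, as log2 relative to the gene's own mean over the 15 regions. Medulla and pons are above the mean for most members, Gaa stands out in hypothalamus (1249 CPM), and Tfeb, Npc2 and Lamp1 share a high medulla and pons and a low visual cortex.

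Choroid plexus and corpus callosum were compared with the mean of the other 14 regions at the mean age. In choroid plexus 30 members differed, 27 higher and 3 lower, where 39.2% of all genes were higher and 36.5% lower. The largest differences were Lamp2 (0.54 ± 0.026 log2), Lipa (0.54 ± 0.027), Manba (0.50 ± 0.038), Fuca1 (0.48 ± 0.025) and Naglu (0.46 ± 0.034), and the 3 lower ones were Ppt1, Asah1 and Idua. In corpus callosum 27 differed, 17 higher and 10 lower, where 43.3% of all genes were higher and 36.9% lower. Tfeb (0.62 ± 0.039), Npc1 (0.53 ± 0.023), Psap (0.48 ± 0.018), Npc2 (0.42 ± 0.026), Lamp2 (0.39 ± 0.027) and Laptm5 (0.37 ± 0.025) were the highest there, and Manba (-0.51 ± 0.045), Gaa (-0.35 ± 0.025) and Neu1 (-0.33 ± 0.016) the lowest. The counts for corpus callosum are close to those of all genes.

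Over the 15 region means, the summed oligodendrocyte markers went with Tfeb (Pearson's r = 0.90), Npc2 (0.89), Lamp2 (0.87), Npc1 (0.87) and Lamp1 (0.85), and the homeostatic microglial markers with Laptm5 (0.92). These are descriptions over 15 points that share mice, and the next highest value for the microglial markers was Hexa (0.59).

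Sexes were compared over the ages that both had, 3 to 21 months. Of 495 pairs 12 differed in level, 4 higher and 8 lower in males, where 1.38% of all pairs were higher and 1.63% lower. Neither count was above the share of all pairs. The 12 pairs lay in medulla (7), hypothalamus (4) and corpus callosum (1). The shares of all genes in each of these regions are not reported here, so the counts by region are not set against them. The largest were Manba in medulla (males 11.5 ± 2.16 CPM, n = 26; females 16.9 ± 5.43, n = 24; male minus female -0.59 ± 0.10 log2, edgeR adjusted p = 5.75e-05) and Psap in hypothalamus (males 1079 ± 188, n = 25; females 810 ± 200, n = 24; 0.44 ± 0.065, edgeR adjusted p = 1.38e-05). With 12-month mice alone, at most 5 of each sex in a region, 0 pairs differed. So few mice limit what that fit could detect, and it does not show that the differences were absent. The slope differed between the sexes for 0 pairs, where 0.0694% of all pairs did, and 27 pairs (5.45%) had an unadjusted p under 0.05, against 6.47% of all pairs.

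Both pairs were examined further by mouse number, after their values were seen. Psap, the precursor of the saposins that activate sphingolipid hydrolases (chr10:60277627-60302597), fell into separate ranges in hypothalamus: 29 libraries lay between 620 and 841 CPM, 26 between 1080 and 1282, and none in between. All 28 libraries of mice numbered 31 and higher were in the lower range, and 26 of the 27 of mice up to 30 were in the upper one. The exception was mouse 2, a 26-month male at 800 CPM. Males 16 to 30 had 1080 to 1265 CPM (n = 14) and males 31 to 36 had 723 to 841 (n = 6), so the ranges did not follow sex. Females 37 to 56 had 620 to 825 (n = 20), and the 12-month females, which carry low numbers, had 1113 to 1282 (n = 4). The mouse number is a label, and the labels do not say whether it marks a batch. Since the males split at the same number, the difference over all mice cannot be assigned to sex. Number also goes with age in part: the 12- and 26-month mice are numbered below 16 and the 28-month mice 57 to 59. What number contributed to the sex difference and to the slope of Psap in hypothalamus (-0.0105) was not tested.

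Manba in medulla had 6.56 to 16.2 CPM in males 16 to 30 (n = 15), 8.28 to 13.6 in males 31 to 36 (n = 6) and 10.2 to 27.7 in females 37 to 56 (n = 20). The 28-month males, numbered 57 to 59, had 21.4, 26.9 and 27.1, all above every other male in that region. The 26-month males had 10.5 to 13.5 (n = 5). Mcoln1, Tpp1 and Glb1 in hypothalamus were called lower in males. Medians of Mcoln1 were 63.4 CPM in males 16 to 30, 75.6 in males 31 to 36 and 71.4 in females 37 to 56. Those of Tpp1 were 84.0, 92.1 and 95.3, and those of Glb1 36.0, 36.9 and 41.3, with overlapping ranges. What number contributed to these sex differences was not tested.

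**Figure D5:**
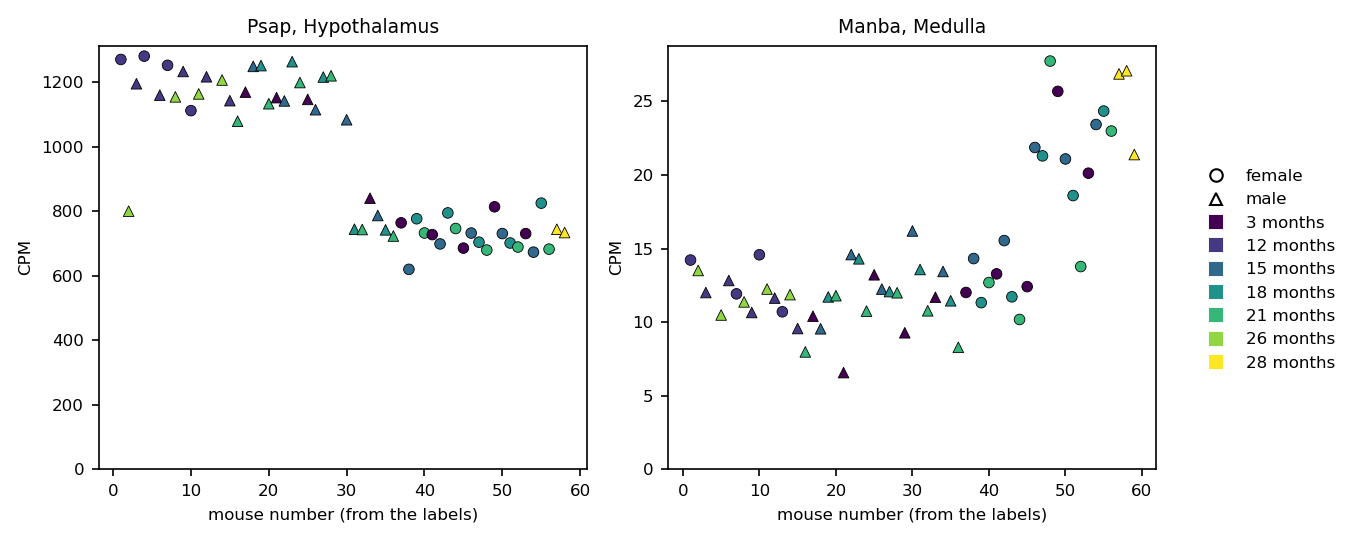
Level in CPM of Psap in hypothalamus and Manba in medulla against mouse number, 1 point per library, coloured by age, with sex given by the shape of the point. Psap drops from 1080 or more to 841 or less between mouse 30 and mouse 31 with 1 exception, within males, and the high Manba values sit at the higher numbers in both sexes.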

How the data were processed

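The authors homogenised each region, isolated RNA with RNeasy, made cDNA by Smart-Seq2 and unstranded libraries with Nextera XT, per the labels' protocols. Reads were trimmed with Trim Galore 0.3.7 and aligned with STAR 2.5.3a to GRCm38, per the submitters' processing notes, which also list DESeq2; the counting program is not given in the sources used here. The deposited table holds raw counts per gene symbol, without molecular identifiers, with each library matched to 1 sample by its label. Totals ran from 481444 to 26756735 reads, 10 libraries being under 1e+06.

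Counts were fitted in each region with edgeR 4.0.16 in R 4.3.3 (TMM factors, genes kept by filterByExpr on sex and age, quasi-likelihood test of age in months beside sex, Benjamini-Hochberg over all genes of the region, threshold 0.05). Age as a factor, sex, age by sex, and a single fit of all regions with age and sex within region gave the other comparisons. Mice are the replicates. Libraries with the same number come from the same animal, so the mouse was the replicate block in an alternative of the fit across regions; within a region each mouse gives 1 library. Displayed CPM use TMM factors over all libraries, and levels per kb use exon lengths of GENCODE (GRCm38). Scripts were tested on simulated data.

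The 33 members, the other lists and the rules were chosen with earlier results of these data known. Genes shown by age were the 8 members that passed in the same direction in the most regions, those that passed in both directions, and the 5 with the smallest adjusted p for corpus callosum against the other 14 regions. Each is shown in its region of largest slope with a mean of at least 5 CPM and in that of the slope nearest 0. Alternatives were RLE factors, no filter, DESeq2 1.42.0, depth terms, mice 16 to 56, males, a microglial covariate, and leaving out mice or libraries. Promoters came from a RefSeq table (GRCm38.p6). Of the further hydrolases, the 5 that rose in the most regions were to be named; 3 of them are, and the others are not reported here.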

Additional observations from a re-analysis of the deposited data

Results flagged for a closer look

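In 316 groups of 4 to 6 mice of 1 sex and age, over the 29 pairs of a member and a region shown by age, 18 groups had a library far from the others of its group. Chance gives about 1 in 20. In cerebellum, Laptm5 was 75.6 CPM in the 21-month female 40, where the others had 30.3 to 43.1, and 55.3 in the 18-month male 23 (others 26.9 to 33.3). In visual cortex, Laptm5 was 77.9 in the 21-month female 48 (others 41.5 to 49.1) and 45.8 in the 26-month male 2 (others 55.2 to 56.7). Mouse 37, a 3-month female, was low for Man2b1 in medulla (40.2, others 50.3 to 53.7) and for Ctns in olfactory bulb (15.0, others 22.4 to 24.5). The 12-month male 9 was low for Naglu in medulla (8.21) and Ppt1 in cerebellum (173), and the 21-month female 56 was high for Ppt1 in cerebellum (191). The 15-month male 26 was high for Fuca1 in choroid plexus (88.2) and low for Galc in corpus callosum (14.2) and Arsa in motor cortex (24.1). Galc in corpus callosum was also high in the 12-month female 13 (16.8) and low in the 12-month male 12 (11.2). The remaining libraries were Gusb in hypothalamus in the 15-month male 34 (22.8, low), Lamp2 in olfactory bulb in the 3-month male 25 (123, low), Lipa in visual cortex in the 15-month male 22 (35.1, high) and Lipa in motor cortex in the 15-month male 30 (26.4, low).

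The slope over age differed between regions for 14 members by the edgeR test of the difference itself. The adjusted p-values were 3.66e-30 for Laptm5, 1.32e-14 for Man2b1, 3.06e-09 for Hexa, 5.1e-05 for Gusb, 0.00012 for Ppt1, 0.00122 for Ctns and 0.00203 for Lamp1. They were 0.00336 for Tfeb, 0.0043 for Scarb2, 0.00546 for Arsb, 0.0255 for Cln3, 0.0368 for Psap, 0.0413 for Npc1 and 0.0466 for Manba. The limit from mouse number given above for Psap and Manba holds here too.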

How the results depend on the processing

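The 127 rises became 134 with RLE factors, 114 without a filter, 136 with depth terms, 137 with DESeq2, 125 without libraries under 1e+06 reads (an alternative added after seeing the data) and 115 to 138 without 1 of 12 mice. They were 79 with mice 16 to 56 alone (all pairs 4.23%) and 78 with males alone (all pairs 3.98%), where with fewer mice fewer pairs could pass. The fit with the microglial covariate, which used all mice, gave 79 (all pairs 5.87%). The 3 falls became 7 with mice 16 to 56, 12 with the covariate, and 2 to 5 without 1 mouse (5 without mouse 37). Pairs higher than at 3 months, in males alone, numbered 0 at 12, 1 at 15, 10 at 18, 23 at 21 and 31 at 26 months. Pairs lower in males alone were 0 at 12, 0 at 15 and 1 at 26 months. The shares of all genes in that fit are not reported here. Without 1 mouse, higher pairs ranged 2 to 6 at 12 months (lowest without mouse 1, and 3 without mouse 3, 17 or 37), 9 to 13 at 15, 30 to 39 at 18, 70 to 83 at 21, 50 to 54 at 26 and 41 to 67 at 28 months. Lower pairs ranged 3 to 5, 1 to 2, 0 to 2, 2 to 6 (6 without mouse 37), 1 to 3 and 0 to 1. Lower pairs were 2 at 15 months with RLE factors, and 1 at 26 and 0 at 28 months without a filter. Slopes differed between regions for 14 members, for 5 with males alone, for 12 with the replicate block, and for 11 to 15 without mouse 37 or 57, the 2 of the 12 planned mice for which this fit was run. Npc1 and Manba were the calls lost with the block, which also gave 0 members for the slope in corpus callosum. Sex differences numbered 7 without a filter, 0 with 12-month mice alone (at most 5 of each sex in a region) and 9 to 17 without 1 mouse, from 12. Of the slopes shown by age, Lipa in cerebellum reversed to -0.00976 with the microglial covariate without passing, and Fuca1 in olfactory bulb passed as a fall of -0.00834 with mice 16 to 56; the cause was not tested. At 28 months 3 mice a region limit what could be detected.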

Other observations

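Epithelial markers of the choroid plexus were also measured in other regions. At 3 months the summed markers reached 8421 CPM in a library of the subventricular zone (median 321), 3108 in caudate putamen (median 24.6) and 1637 in thalamus (median 67.1). In motor cortex the highest sum was 5.77 CPM. Ttr, the most abundant epithelial transcript, had a median of 0 in cerebellum, motor cortex, visual cortex and both hippocampal samples. In entorhinal cortex the mature oligodendrocyte markers ran from 482 to 22004 CPM at 21 months (median 1213). Without the library of mouse 52 no member rose in entorhinal cortex either. The fits of the other regions do not use that library, so the total of 127 rises over the 15 regions was unchanged.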
